A study of Mus musculus with 8 samples.

Results

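The genes described here encode the proteins of the cytosolic ribosome, and their RNA was read from mouse lung homogenates. They were chosen by name alone: symbols that start with Rpl or Rps followed by a number, and Rplp0, Rplp1, Rplp2 and Rpsa, without pseudogene names and without the Rps6k kinases. The rule found 82 of the 15960 gene symbols in the table, 49 with large subunit names (Rpl and Rplp) and 33 with small subunit names (Rps and Rpsa). It also takes in genes that are not standard ribosomal proteins: the paralogs Rpl3l, Rpl7l1, Rpl22l1, Rpl36al, Rps27l and Rps4l, the like-named Rpl32l and Rpl37rt, and Rps19bp1, which encodes a binding partner of Rps19. Rpl26, Rpl30, Rpl34 and Rps20 were not analysed here.

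The cytosolic ribosome translates the messages of nuclear genes. Its small subunit holds the decoding site and its large subunit joins amino acids, and most of its proteins are present in equal number in every particle. Many messages of ribosomal proteins begin with a cytosine followed by a tract of pyrimidines, through which mTORC1, a growth-sensing kinase complex, controls their translation. Ribosomal protein messages are present in all nucleated cells of the lung.

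The control mice carried the Alb-Cre driver alone (Alb-Cre, 4 libraries), and the other mice carried the driver with floxed alleles of Hif1a and Bmal1 (BHLKO, 4 libraries). Alb-Cre is active in hepatocytes, so lung lies outside the targeted organ, and both groups carry the driver. All were C57BL/6 mice aged 3 to 5 months, kept for 2 weeks in 12 h light and 12 h dark, left in darkness on the day of collection and sampled at circadian time 16. Nothing in the labels says that each library came from a separate animal, so p-values measure the spread between libraries. All 13 listed marker genes of lung cells were read. Their summed level was 89334 to 100537 CPM (read counts scaled to equal library size) in Alb-Cre and 88150 to 94706 CPM in BHLKO. Of these, 12 lay above 0 in log2 fold change, while 50.3% of all tested genes lay below 0. With edgeR 2 of the 13 rose (15.4%, against 1.04% of all tested genes). Sftpd, a surfactant protein gene, rose from 1431 ± 103 to 1923 ± 170 CPM (edgeR adjusted p = 0.0194). Foxf1, a lung mesenchyme factor, rose from 329 ± 40.1 to 463 ± 64.1 CPM (SD, n = 4 each, edgeR adjusted p = 0.0311). DESeq2 and limma-voom also each called 2 of the 13 higher, against 2.31% and 0.969% of all genes. The part of these 13 genes in the members' levels was not tested. Neither floxed gene passed the test in lung, with overlapping groups: Bmal1 (listed as Arntl) was at 6.02, 5.93, 8.58 and 5.63 CPM in Alb-Cre replicates 1, 2, 4 and 5 and at 5.62, 7.57, 6.07 and 11.1 CPM in BHLKO replicates 2, 3, 4 and 5 (edgeR adjusted p = 0.726). Hif1a was at 12.6, 14.6, 14 and 10.2 CPM and 14.8, 14.6, 12.6 and 12.2 CPM in that order (edgeR adjusted p = 0.853). The part of each gene that Cre removes is not given in the sources used here, so gene totals check the labels only in part. Total counts ran from 6838427 to 15430372 per library, and 13517 genes had enough counts to be tested.

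Some members had a pyrimidine tract at the listed start and others had none. RefSeq start windows were matched for 63 of the 82 members. Where the messages start in lung was not measured, and the result depends on the listed start. At the 3 listed starts of Rpl35a the longest stretch of C and T was 4, 13 and 5 letters. A window without a tract therefore does not show that the message has none. A run of at least 8 letters made only of C and T lay within the 30 bases around the start, on the coding strand, in 27 of these 63 (42.9%), against 13.9% of the 27025 genes with a window, and the other 36 members had no such run. The windows below (RefSeq, GRCm38.p6) run 5′ to 3′ from 15 bases before the listed start to 15 after it, and capitals mark the longest run of C and T where it has at least 8 letters. Rpl35a and Rps26 are shown because they passed the test of the genotypes, Rpl14 and Rplp2 because they came next or belong to the stalk, Rps6 and Rpl38 as standard members with a run, Rpl11 and Rpl41 as standard members without one, and Rpl3l and Rpl7l1 as relatives without one.
Rpl35a (chr16:33056467-33056496, plus strand, the second of 3 listed starts): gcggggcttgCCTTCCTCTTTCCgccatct
Rps26 (chr10:128626492-128626521, minus strand): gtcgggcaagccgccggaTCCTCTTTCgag
Rpl14 (chr9:120571502-120571531, plus strand): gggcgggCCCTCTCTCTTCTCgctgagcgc
Rplp2 (chr7:141447636-141447665, plus strand): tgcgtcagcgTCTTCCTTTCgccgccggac
Rps6 (chr4:86857353-86857382, minus strand): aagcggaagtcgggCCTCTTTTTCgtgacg
Rpl38 (chr11:114668565-114668594, plus strand): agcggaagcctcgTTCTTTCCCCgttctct
Rpl11 (chr4:136053379-136053408, minus strand): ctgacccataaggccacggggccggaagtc
Rpl41 (chr10:128549154-128549183, minus strand): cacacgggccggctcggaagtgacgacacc
Rpl3l (chr17:24727811-24727840, plus strand, the first of 2 listed starts): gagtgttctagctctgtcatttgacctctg
Rpl7l1 (chr17:46782642-46782671, minus strand): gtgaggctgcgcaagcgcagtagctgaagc

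Fixed motifs were searched over the 300 bases from 250 before to 50 after the start. The shares are over the 63 members and the 27025 genes with a window, which are more than the 13517 genes tested in lung. CTCTTTC lay on the coding strand of 12 members (19%, against 4.6% of all genes with a window). On either strand it lay in 17 (27%, against 9.28%). CCGGAAG, a site for ETS family factors, lay on either strand of 23 members (36.5%, against 9.93%). AAGATGG, a core of YY1 sites, lay on either strand of 10 (15.9%, against 7.28%). CTCTTTC can overlap the runs shown above. A match is a match of letters and was not tested for binding.

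Ribosomal protein genes took a smaller share of the RNA counts in BHLKO lung. The members held 5.33%, 5.05%, 5.41% and 5.04% of all counts in Alb-Cre replicates 1, 2, 4 and 5, and 4.66%, 4.43%, 4.51% and 4.36% in BHLKO replicates 2, 3, 4 and 5. Every BHLKO library lay below every Alb-Cre library. The means were 5.21% ± 0.192 and 4.49% ± 0.13 (SD, n = 4 each), a difference of −0.717 percentage points. Counting error was far smaller than this gap: the 95% exact Clopper-Pearson interval was 5.03% to 5.05% in Alb-Cre replicate 5, the lowest control, and 4.65% to 4.67% in BHLKO replicate 2, the highest of the other group. Reads carry no molecular identifiers, so these intervals cover counting error only. In whole tissue, fewer cells of a type and less RNA per cell cannot be told apart.

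Both subunits took part. Small subunit genes held 2.23% ± 0.065 of counts in Alb-Cre and 1.92% ± 0.0745 in BHLKO, and large subunit genes 2.97% ± 0.131 and 2.57% ± 0.0668 (SD, n = 4 each). The groups did not overlap for either subunit. The ratio of large to small subunit counts was 1.33 ± 0.03 in Alb-Cre and 1.34 ± 0.0378 in BHLKO, and those groups overlapped. Genes of the mitochondrial ribosome, which translates the mitochondrial genome and is the family most like these by function, held 0.375% ± 0.0165 and 0.369% ± 0.0111 (SD, n = 4 each), with overlapping groups. The ratio of cytosolic to mitochondrial ribosomal protein counts was 13.6 to 14.2 in the Alb-Cre libraries and 11.9 to 12.5 in the BHLKO libraries.

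**Figure D1:**
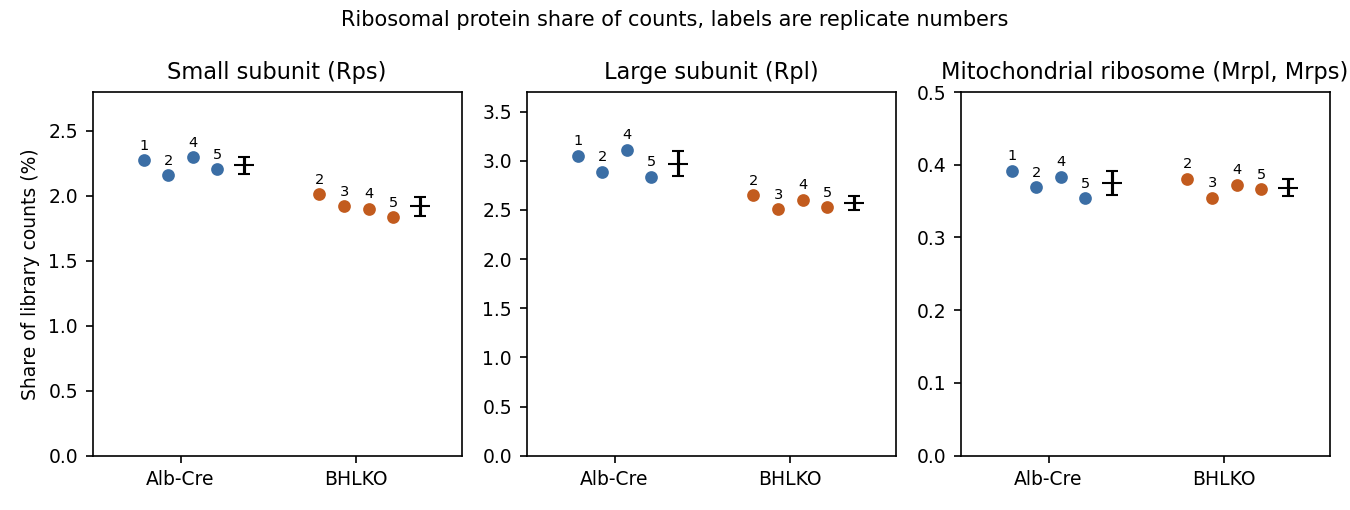
Share of all library counts, in percent, held by small subunit, large subunit and mitochondrial ribosomal protein genes; each point is 1 library with its replicate number, and the bar is the group mean with its SD (n = 4). The BHLKO points lie below all Alb-Cre points for both cytosolic subunits, while the mitochondrial shares overlap.

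Gene by gene, 4 members passed the test, all lower in BHLKO, and 3 of them are described here. These are 4 of 81 tested members (4.94%), against 1.23% of all tested genes that fell and 2.26% called in either direction. None rose, against 1.04% of all tested genes. One member, Rps27, had too few counts to be tested. The tests are edgeR's quasi-likelihood test with Benjamini-Hochberg adjustment over all 13517 genes. With DESeq2 12 members fell (14.8%, against 2.64% of the 13772 genes it tested, with 4.94% called in either direction). With limma-voom 4 fell (against 1.06% of all tested genes, with 2.03% called in either direction). Neither tool called a member that rose, against 2.31% of all genes with DESeq2 and 0.969% with limma-voom. At an unadjusted p under 0.05, edgeR put 28 members lower and 1 higher, beside 1106 lower (8.18%) and 1074 higher (7.95%) among all tested genes.

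Rpl35a encodes a large subunit protein that is mutated in Diamond-Blackfan anemia in human. Its level was 134, 130, 189 and 136 CPM in Alb-Cre replicates 1, 2, 4 and 5, and 98, 91, 105 and 87.5 CPM in BHLKO replicates 2, 3, 4 and 5. Alb-Cre replicate 4 stood above its group, and the groups did not overlap. It fell by 0.63 ± 0.12 on the log2 scale (SE; edgeR adjusted p = 0.00999), and by 0.49 without Alb-Cre replicate 4. The gene lies at chromosome 16, 33056453 to 33060189, and its start sequence with a run of 13 pyrimidines is printed above.

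Rps27a encodes a small subunit protein made as a fusion with ubiquitin. Its level was 154, 151, 164 and 148 CPM in Alb-Cre replicates 1, 2, 4 and 5, and 106, 124, 116 and 112 CPM in BHLKO replicates 2, 3, 4 and 5, again with no overlap. It fell by 0.43 ± 0.09 on the log2 scale (SE; edgeR adjusted p = 0.0137), and the call was lost without BHLKO replicate 2 (edgeR adjusted p = 0.0558). The gene lies at chromosome 11, 29545846 to 29548109.

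Rps26 encodes a small subunit protein at the messenger RNA exit channel and is also mutated in Diamond-Blackfan anemia in human. Its level was 659, 625, 626 and 567 CPM in Alb-Cre replicates 1, 2, 4 and 5, and 474, 451, 510 and 437 CPM in BHLKO replicates 2, 3, 4 and 5. All BHLKO values lay below all controls. It fell by 0.40 ± 0.09 on the log2 scale (SE; edgeR adjusted p = 0.022). It was the least stable call: it held only without Alb-Cre replicate 5 or without BHLKO replicate 4, and dropping any of the other 6 libraries ended it (highest edgeR adjusted p = 0.0819). The gene lies at chromosome 10, 128624534 to 128626747.

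**Figure D2:**
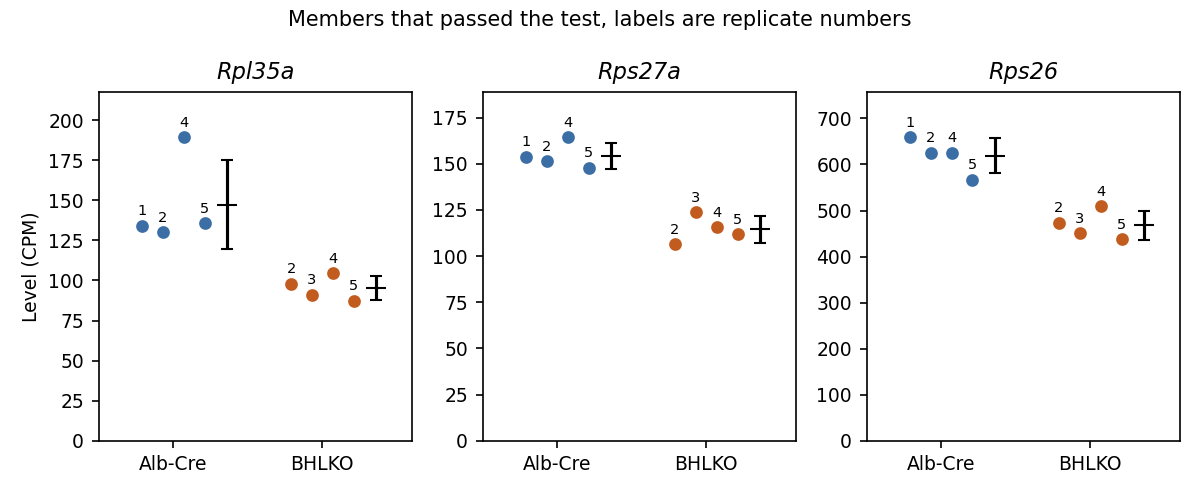
Level in CPM of Rpl35a, Rps27a and Rps26, members that passed the test; each point is 1 library with its replicate number, and the bar is the group mean with its SD (n = 4). In each panel the BHLKO points lie below all Alb-Cre points, and Alb-Cre replicate 4 stands apart for Rpl35a at 189 CPM.

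The remaining members leaned the same way by small amounts. The fitted log2 fold change was below 0 in 67 of the 81 tested members (82.7%, against 50.3% of all tested genes). The median over the members was −0.17, with quartiles of −0.26 and −0.07, while the median over all tested genes was 0.00. The median was −0.19 over 32 small subunit genes and −0.15 over 49 large subunit genes. Group values did not overlap, with BHLKO lower, in 20 members (24.7%, against 4.99% of all tested genes), and with BHLKO higher in 1 (1.23%, against 4.63%). Among the 20 were Rpl14, Rpl17, Rpl18, Rpl22, Rpl24, Rpl29, Rpl35, Rpl35a, Rpl36 and Rplp1 of the large subunit and Rps9, Rps12, Rps14, Rps18, Rps19, Rps23, Rps26 and Rps27a of the small subunit. The 1 above was Rpl15, with means of 22.1 ± 0.508 CPM for Alb-Cre against 25.7 ± 2 CPM for BHLKO (SD over 4 libraries; edgeR adjusted p = 0.429).

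**Figure D3:**
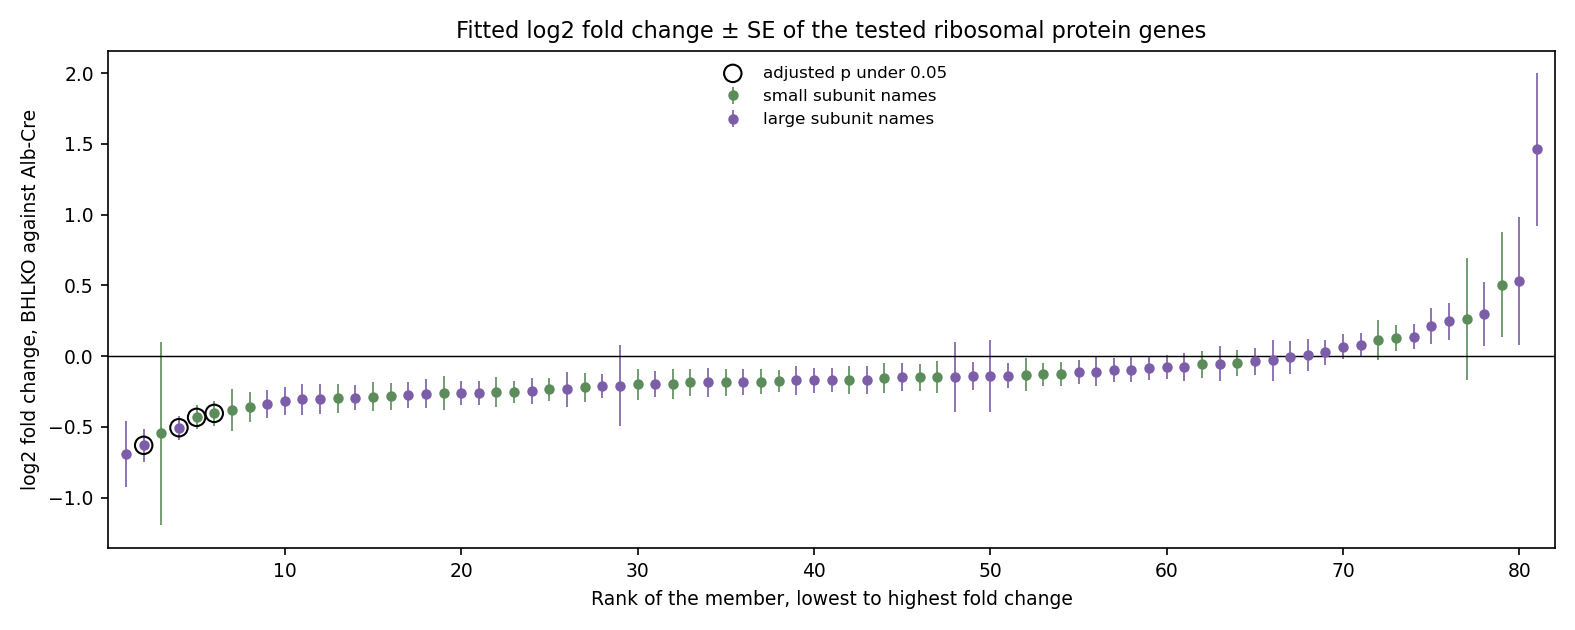
Fitted log2 fold change of BHLKO against Alb-Cre with its SE for each of the 81 tested members, placed along the x axis by rank from lowest to highest; colour gives the subunit of the name and open circles mark the 4 members with an edgeR adjusted p under 0.05. Of the 81 points 67 lie below 0, and the right end holds Rpl3l at 1.46 with a wide error.

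The members were also compared by level. Of the 65 members with a mean of at least 100 CPM, 59 lay below 0 (90.8%) with a median log2 fold change of −0.18. The other 1917 tested genes at that level had 47.3% below 0 and a median of 0.01. Of the 8 tested members under 10 CPM, 3 lay below 0, with a median of 0.28. These limits on level were set after the values were seen, and the correlation across the 81 genes of fold change with log2 mean level was −0.315 (Spearman) and −0.537 (Pearson). Genes share the same 8 libraries and are not independent, so no p is given.

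**Figure D4:**
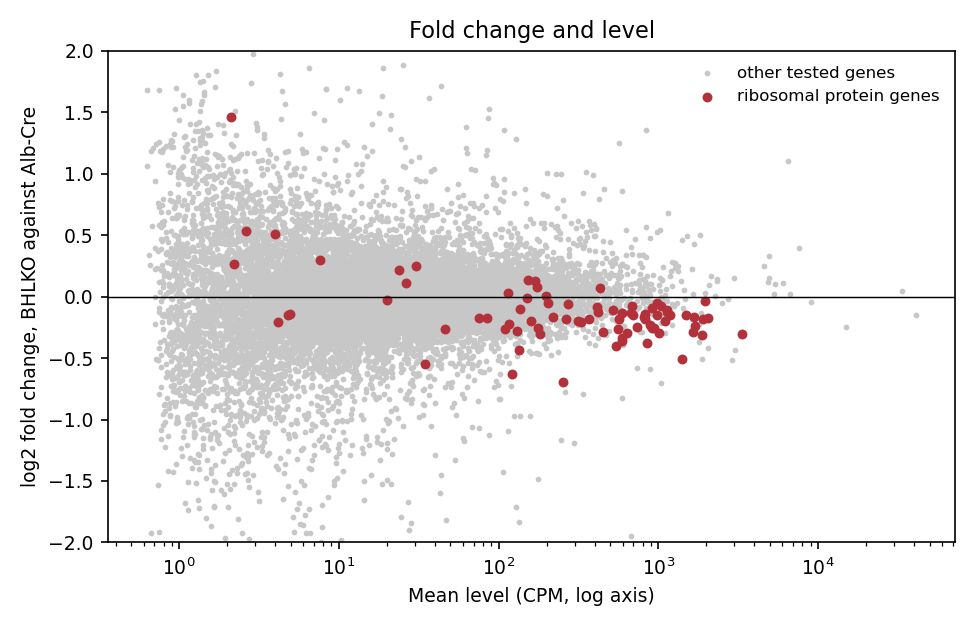
Log2 fold change of BHLKO against Alb-Cre and mean level in CPM on a log axis, for the members (red) and the other tested genes (grey), of which 53 with log2 fold changes beyond 2 in size lie outside the plotted range. Members at 100 CPM or more lie mostly below 0, with a median of −0.18, and those under 10 CPM spread widely.

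The stalk proteins recruit elongation factors to the large subunit. Rplp1, the member with the highest level per kilobase of transcript (6721 CPM per kb), was at 3815, 3726, 3687 and 3605 CPM in Alb-Cre replicates 1, 2, 4 and 5, and at 3485, 2464, 3450 and 2599 CPM in BHLKO replicates 2, 3, 4 and 5. The groups did not overlap, with BHLKO replicates 3 and 5 well below the others, and Rplp1 did not pass (log2 −0.31 ± 0.11, SE; edgeR adjusted p = 0.17). It made up 10.3% of the difference in the members' share, more than any other member. Its partner Rplp2 was at 2072 ± 142 and 1666 ± 219 CPM (edgeR adjusted p = 0.119) and their anchor Rplp0 at 611 ± 31.3 and 509 ± 72 CPM (SD, n = 4 each; edgeR adjusted p = 0.208), both with overlapping groups.

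Rpl29 and Rps12 are named outside the rule, on the basis of their values, for libraries that stood apart. Rpl29, a large subunit protein gene, was at 303, 279, 330 and 347 CPM in Alb-Cre replicates 1, 2, 4 and 5, and at 245, 134, 261 and 140 CPM in BHLKO replicates 2, 3, 4 and 5. BHLKO replicates 3 and 5 were low for Rpl29 as they were for Rplp1, and with a log2 fold change of −0.69 ± 0.23 it did not pass with edgeR (SE; adjusted p = 0.194) but was called with DESeq2 (adjusted p = 0.0106). Rps12, a small subunit protein gene, was at 852, 783, 850 and 1350 CPM in Alb-Cre and at 754, 740, 685 and 773 CPM in BHLKO, in the same order of replicates. The high value of Alb-Cre replicate 5 went with a log2 fold change of −0.38 ± 0.15 (SE; edgeR adjusted p = 0.221).

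Rps27a, made as a fusion with ubiquitin, is among the called members described above. No other member named in this paragraph passed with edgeR, against 2.26% of all tested genes. Of these others Rpl22 and Rpl14 passed with DESeq2, against 4.94% of the genes it tested. Rpl5 and Rpl11, which bind the p53 ligase Mdm2 together with a small ribosomal RNA, were at 6.82 ± 1.34 and 8.33 ± 1.62 CPM and at 863 ± 115 and 783 ± 52.2 CPM (Alb-Cre and BHLKO; SD, n = 4 each). Rps6, the substrate of the S6 kinases below mTORC1, was at 170 ± 13.1 and 148 ± 23.8 CPM. Rpl38, needed for translation of Hox messages in mouse embryos, was at 966 ± 121 and 820 ± 150 CPM. Rpl22, needed for development of alpha-beta T cells in mouse, was at 119 ± 2 and 99.4 ± 5.76 CPM with no overlap (edgeR adjusted p = 0.12, DESeq2 adjusted p = 0.0365). Rpsa was at 861 ± 88.5 and 768 ± 72.1 CPM, and Rpl10, which joins late in assembly, at 152 ± 6.85 and 151 ± 28.3 CPM. The next member by p after the 4 calls was Rpl14, at 665 ± 61.3 and 526 ± 53.4 CPM (edgeR adjusted p = 0.0849, DESeq2 adjusted p = 0.0199). Among the members with the highest counts, Rpl41, which encodes the smallest ribosomal protein, was at 1993 ± 262 and 1942 ± 51.3 CPM (edgeR adjusted p = 0.891).

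Paralogs and like-named genes are given apart. Of the 9 members that are paralogs, like-named genes or Rps19bp1, a list drawn after the values were seen, 3 lay below 0 and 6 above, with a median log2 fold change of 0.13, against −0.18 over the other 72 tested members. Rpl3l, which replaces Rpl3 in striated muscle of mouse, was at 0.818, 0.145, 2.15 and 1.26 CPM in Alb-Cre replicates 1, 2, 4 and 5, and at 3.99, 1.29, 3.4 and 3.91 CPM in BHLKO replicates 2, 3, 4 and 5. Its groups overlapped and it did not pass (log2 1.46 ± 0.54, SE; edgeR adjusted p = 0.181). The 8 listed genes of cardiac muscle, which lung has in its pulmonary vein walls, summed to 1273 to 2583 CPM in Alb-Cre and 1694 to 4847 CPM in BHLKO, with 0 of 8 past the edgeR test, 5 at an unadjusted p under 0.05, 3 by DESeq2 and 0 by limma-voom. All were read, and their part in the level of Rpl3l was not tested.

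Rpl36al, an autosomal copy of the X-linked Rpl36a, was at 145 ± 6.49 and 160 ± 13.8 CPM (edgeR adjusted p = 0.482) while Rpl36a was at 233 ± 8.02 and 207 ± 26.7 CPM (SD, n = 4 each; edgeR adjusted p = 0.44). The ratio of the pair differed by 0.31 on the log2 scale (BHLKO higher), and the exact two-sided permutation test over 70 orderings gave p = 0.0571, or 0.257 adjusted over the 6 pairs compared. For Rpl3l to Rpl3 the difference was 1.35 (exact permutation p = 0.0857, adjusted 0.257) and for Rpl7l1 to Rpl7 0.17 (exact permutation p = 0.257, adjusted 0.514). For Rpl22l1 to Rpl22 it was 0.12 (exact permutation p = 0.486, adjusted 0.583), for Rps4l to Rps4x 0.35 (exact permutation p = 0.6, adjusted 0.6) and for Rps27l to Rps27 0.35 (exact permutation p = 0.4, adjusted 0.583). All 6 differences were above 0. The smallest p this design allows is 0.0286, which for a single pair becomes 0.171 after adjustment, so no single pair could have passed and the adjusted values do not show that ratios were alike. Ratios are of CPM plus 0.5, and those with Rps27 rest on 0 to 8 counts of Rps27 per library.

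Rps27l, induced by p53 in mouse and human cells, was at 162 ± 9.9 and 177 ± 12.9 CPM (SD, n = 4 each; edgeR adjusted p = 0.517). Rpl7l1, a relative of Rpl7, was at 27.8 ± 4.48 and 32.9 ± 2.38 CPM (edgeR adjusted p = 0.377), and Rpl7 at 169 ± 3.8 and 179 ± 12 CPM. Rpl22l1 was at 5.03 ± 0.449 and 4.53 ± 0.671 CPM, and Rpl3 at 705 ± 85.6 and 670 ± 46.1 CPM. Rps4l was at 50.7 ± 6.4 and 42.3 ± 5.3 CPM. Rps4x, the X-linked standard gene, varied most between libraries of the members above 10 CPM, from 19.1 to 80.5 CPM in Alb-Cre and from 8.51 to 48.1 CPM in BHLKO.

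Counts of these genes depend on how reads shared with copies were handled, which is not given in the sources used here. The genome holds many processed pseudogenes of ribosomal proteins. Of the 50-base stretches of the principal transcript, a median of 45.5% over 79 members occurred in no annotated gene at another position. The range was from 1.35% for Rps27 to 100% for Rpl3l and Rps19bp1. Stretches found only in a gene overlapping the member's own position still counted as unique. Such overlapping genes held 59.5% of the stretches of Rpl36al, 59% of Rpl35 and 45.3% of Rpl5. These members lie above the limit of 50% used below. Rps27 had 0 to 8 counts per library. The share was 61.7% (Rps26), 45.5% (Rpl35a) and 28.1% (Rps27a), and it was 21.5% for Rpl29 and 9.89% for Rps12. The places by level given above to Rplp1 (40% unique stretches) and Rpl41 (46.9%) therefore depend on how shared reads were handled. Rps24 (2.19 CPM on average) and Rps15a (3.97 CPM) were read at levels far below most members. The downward lean appeared on either side of a limit of 50% unique stretches, with 24 of 33 tested members below 0 above the limit (median −0.15) and 41 of 45 under it (median −0.18).

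Members were also split by the run of C and T at the listed start, which need not be the start used in lung. The difference between these groups was not tested. Of 26 tested members with a run of at least 8, 19 lay below 0 (73.1%), with a median log2 fold change of −0.15. In 7 the groups did not overlap with BHLKO lower (26.9%), and 2 were called with edgeR (7.69%). At an unadjusted edgeR p under 0.05, 7 were lower and 0 higher. Of 36 without one, 30 lay below 0 (83.3%), with a median of −0.16. In 5 the groups did not overlap with BHLKO lower (13.9%), and 0 were called with edgeR. At an unadjusted edgeR p under 0.05 there were 13, 12 of them lower. Among all tested genes 4.99% were lower without overlap, 1.23% fell and 8.18% were lower at an unadjusted edgeR p under 0.05. Called members without a matched window, Rps27a among them, are in neither group.

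None of the members near the floxed genes passed with edgeR, against 2.26% of all tested genes. So few members cannot show whether position mattered. Within 20 Mb of Bmal1 (listed as Arntl, chromosome 7) lay Rpl27a, Rps13, Rps15a and Rps3, and within 20 Mb of Hif1a (chromosome 12) lay Rpl36al and Rps29. Their log2 fold changes ranged from −0.15 (Rps29, 1563 ± 133 and 1411 ± 227 CPM) to 0.51 (Rps15a, 3.27 ± 0.721 and 4.66 ± 2.18 CPM; SD, n = 4 each). Rpl35a, Rps27a and Rps26 lie on other chromosomes.

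None of the other genes of translation passed with edgeR. The 9 lists of translation factors, oligopyrimidine messages, ribosome assembly and its control held 152 tested genes, of which 0 passed with edgeR (against 2.26% of all tested genes; 13 at an unadjusted p under 0.05, 6 higher and 7 lower, that is 8.55% against 16.1%), 1 fell with DESeq2 and 0 passed with limma-voom. Their median log2 fold change was −0.04. By list the medians were −0.09 over 8 elongation factor genes, −0.03 over 12 subunits of initiation factor 3, 0.04 over 23 other initiation factor genes, −0.07 over 42 assembly factor genes, −0.11 over 17 genes of RNA polymerase I and Myc, 0.00 over 19 genes of mTORC1 signalling and 0.03 over 15 chaperone and quality control genes. The 75 tested genes of the mitochondrial ribosome had 0 calls with edgeR, DESeq2 and limma-voom (10 at an unadjusted p under 0.05, 5 each way) and a median of 0.01.

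Genes whose messages also start with pyrimidine tracts were mixed. The 9 other messenger genes of that kind had a median log2 fold change of −0.04, with Fau, whose product is cut to a small subunit protein, at 381 and 335 CPM (edgeR adjusted p = 0.406) and Rack1, a scaffold on the small subunit, at 1119 and 1021 CPM (edgeR adjusted p = 0.427). The 9 host genes of small nucleolar RNAs had a median of −0.19, with 8 of 9 below 0. Snhg1 was at 4.5 and 2.31 CPM (edgeR adjusted p = 0.17) and Snhg8 at 76.7 and 66.5 CPM (edgeR adjusted p = 0.281). Of the remaining lists, the genes with the smallest p were Trp53 (p53) at 33.9 and 25 CPM (edgeR adjusted p = 0.0902), Ipo7, an importer of ribosomal proteins, at 34.3 and 46.7 CPM (edgeR adjusted p = 0.105) and Eif3a, the largest initiation factor 3 subunit, at 48 and 60.2 CPM (edgeR adjusted p = 0.115).

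Levels of blood cell genes moved with the same groups. The 10 listed T and NK cell genes summed to 149, 177, 141 and 89.8 CPM in Alb-Cre replicates 1, 2, 4 and 5 and to 88.2, 63.9, 54.2 and 46.1 CPM in BHLKO replicates 2, 3, 4 and 5. The 9 B and plasma cell genes summed to 300, 161, 352 and 89.8 CPM and to 51, 80.5, 54.7 and 45.3 CPM in the same order. Of these genes Cd4, Cd8a, Cd3d and Cd6 of T cells and Cd22 of B cells fell with edgeR, against 1.23% of all tested genes. The call of Cd22 was close to the limit (edgeR adjusted p = 0.0474). DESeq2 called 7 T and NK cell genes and 6 B and plasma cell genes lower, against 2.64% of all genes. With limma-voom these were 4 and 0, against 1.06%. The Alb-Cre and BHLKO sums did not overlap for either list. The 6 red blood cell genes summed to 639 to 929 CPM in Alb-Cre and 1133 to 1443 CPM in BHLKO. Alas2, the heme synthesis enzyme of red cells, was among 3 of them that rose with edgeR. The 7 platelet genes summed to 270.5 to 326 CPM in Alb-Cre and 359 to 750 CPM in BHLKO, and 1 rose with edgeR. Among all tested genes 1.04% rose. No gene of these lists was at 0 in every library. Their part in the members' levels was not tested.

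Sums for other tissues overlapped between the groups. Adipocyte genes (7) summed to 267 to 3054 CPM in Alb-Cre and 552 to 1373 CPM in BHLKO, neutrophil genes (6) to 47.4 to 597 CPM and 35.4 to 206 CPM, thymus and esophagus genes (6) to 23.9 to 71.6 CPM and 4.4 to 29.9 CPM, hepatocyte genes (6) to 5.8 to 76.6 CPM and 2.1 to 191 CPM, and nuclear RNAs (4, Malat1 and Neat1 among them) to 697 to 855 CPM and 780 to 889 CPM.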

How the data were processed

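RNA of 8 mouse lung libraries was measured. The submitters' processing notes name genome build mm10 and, without role or order, HTSeq, DESeq2, cutadapt and STAR 2.5.2b. The authors' deposited table holds whole-number read counts per gene symbol and a normalized signal, which is the counts divided by 1 constant per library; only the counts were tested. The 16 columns were all matched by the descriptions, whose replicate numbers are used here and differ from those in the titles. No source used here states strand handling or annotation, so antisense and overlapping genes cannot be told apart.

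Counts were tested with edgeR 4.0.16 (R 4.3.3): TMM scaling, filterByExpr, robust quasi-likelihood test, Benjamini-Hochberg adjustment, called under 0.05. The filter kept 13517 genes with 99.899% of counts. CPM use TMM-scaled library sizes. SEs come from fold change and F statistic. Paralog ratios were compared by exact permutation. Alternatives were other scalings, no filter, DESeq2 1.42.0, limma-voom (limma 3.58.1), replicate number as a block, other pseudocounts and leaving out each library. The tests were tested on simulated data. Positions, transcripts and 50-base stretches are from GENCODE M21 (GRCm38), with 1 principal transcript per gene; all 82 symbols matched. Members and lists were chosen with earlier results of these data known. Named members are those called, the 5 smallest p in each direction, the highest and lowest levels, paralog pairs, members near the floxed genes and members with set roles; from each list the called genes and the smallest p. Some members are not reported here by name.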

Additional observations from a re-analysis of the deposited data

Results flagged for a closer look

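In 2 of 80 groups of 4 libraries checked, 1 library stood apart from the other 3 by a gap beyond Dixon's 95% critical value; chance gives about 1 in 20. Rpl35a was at 189.3 CPM in Alb-Cre replicate 4, against 130.1 to 135.9 CPM in the other Alb-Cre libraries. Rps27l was at 176.9 CPM in Alb-Cre replicate 5, against 156.4 to 158.5 CPM in the others. The check did not cover every member. Rps12, named above for its high value in Alb-Cre replicate 5, was not part of it.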

How the results depend on the processing

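The number of members that fell was 4 under every scaling, without the filter and with limma-voom, 12 with DESeq2 and 2 to 4 on leaving out 1 library, with 2 without BHLKO replicate 2. No setting gave a member that rose. Calls over all genes were 306, 681 with DESeq2 and 131 to 520 on leaving out 1 library. The lowest count came without replicate 1 of Alb-Cre and the highest without its replicate 5; it was 195 and 156 without its replicates 2 and 4, and 167, 188 and 177 without replicates 2, 4 and 5 of BHLKO. Mitochondrial ribosomal protein calls were 0 to 1 on leaving out 1 library, the 1 without Alb-Cre replicate 5. DESeq2 also called Rpl14 (adjusted p = 0.0199), Rpl22 (adjusted p = 0.0365), Rpl18, Rpl29, Rpl36, Rps3a1, Rps9 and Rps14. The median log2 fold change of the members stayed between −0.18 and −0.14 and the difference in share between −0.775 and −0.649 points over all settings run for each. Same-numbered libraries did not deviate together (correlations 0.04, −0.01 and 0.02). So few correlations cannot exclude a pairing by number, and the titles number the libraries differently. With the replicate block, in which Alb-Cre replicate 1 and BHLKO replicate 3 have no partner and add nothing to the comparison, 160 genes and 1 member, Rpl35a, were called, and the log2 fold changes of Rps3 (0.0466) and Rpl10 (0.0017) turned sign. Leaving out 1 library turned the sign of Rpl10 (−0.0869 to 0.1013), Rpl27a (−0.0006 to 0.0685), Rpl41 (−0.1238 to 0.0126), Rps24 (−0.0554 to 0.4499) and the ratio of Rps4l to Rps4x (−0.0946 to 0.6899). The causes were not tested. Members under 10 CPM are limited by depth.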
